A study of Mus musculus with 12 samples.

Results

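The regions described here were 1237 m6A peaks of mouse skin that lay in the first exon of their gene and were called in both arms of a UV experiment. N6-methyladenosine (m6A), a methyl mark on adenosines inside messenger RNA, was mapped by MeRIP-seq, in which RNA fragments bound by an antibody to the mark (the IP library) are sequenced beside the unselected RNA (the input library). There were 3 control and 3 UV samples of skin, each with an IP and an input library, 12 libraries in all, in a series about the methyltransferase subunit KIAA1429 (Virma), Mfap4 and collagen synthesis in photoaging. The control group was labelled as control skin and the UV group as UV-treated skin. Strain, age, sex, body site, the type and dose of UV, the time of collection and whether a sample was 1 animal or a pool are not stated in any label, so p-values measured the spread between these samples.

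A peak entered the set when it came from the UV-arm list, spanned at most 10000 bases, overlapped a control-arm peak on the same strand, and had its midpoint in the first of at least 2 merged exons of its gene. The 1237 peaks were 4.95% of 24969 UV-arm peaks and 8.70% of the 14219 that were shared with the control arm. They lay in 1057 genes. The same rule applied from the control-arm list gave 1328 peaks, and another 1415 UV-arm peaks had their midpoint in a first exon but overlapped no control-arm peak. Among the other shared peaks, 6406 had their midpoint in a last exon, 2987 in an internal exon of at least 400 bases, 307 in a shorter internal exon, 720 in a single-exon gene and 2559 in an intron. The widest peaks of the set spanned 5437 bases in Ccdc86, 4492 in Faim, 4188 in Arid5a, 4145 in Crbn and 4105 in Spg20, and the smallest overlap with a control-arm peak was 1 base, in Pstpip1. None of the 584 UV-arm peaks that were over 10000 bases wide and overlapped a control-arm peak had its midpoint in a first exon.

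m6A is written during transcription by the METTL3 and METTL14 complex with partners such as WTAP, VIRMA and RBM15, mostly in the motif DRACH, of which GGAC is a common core. It is densest in last exons and in long internal exons, and the exon junction complex keeps the writer away from short exons that are close to splice junctions. The start of a transcript can carry a different mark, N6,2'-O-dimethyladenosine (m6Am), on the first nucleotide after the cap when that nucleotide is an adenosine. Antibodies to m6A also bind m6Am, so an IP peak at a transcript start does not separate the marks.

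The starts of 10 of these genes show the bases on which that ambiguity rests. Symbols of 912 peaks were found in the RefSeq promoter table (GRCm38.p6), and for 392 of them, in 326 genes, the first exon began at the RefSeq start. Each line gives 60 bases of the transcribed strand, with the last base before the RefSeq start and the first base of the transcript in capitals. Abca1, Dmkn and Dct are shown for their high IP over input or high read number. The others were picked from the peaks that a comparison between UV and control names, and not all such peaks are shown.
Abca1, chr4:53159866-53159925, minus strand: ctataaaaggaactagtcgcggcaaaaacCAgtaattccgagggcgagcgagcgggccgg
Dmkn, chr7:30763726-30763785, plus strand: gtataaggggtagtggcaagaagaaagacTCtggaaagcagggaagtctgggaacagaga
Dct, chr14:118052217-118052276, minus strand: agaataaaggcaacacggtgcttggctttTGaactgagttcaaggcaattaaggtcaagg
Eif4e2, chr1:87213884-87213943, plus strand: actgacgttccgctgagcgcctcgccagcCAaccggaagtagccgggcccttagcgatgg
Exoc6b, chr6:85069484-85069543, minus strand: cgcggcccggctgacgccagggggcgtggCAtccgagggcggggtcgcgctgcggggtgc
Pla2g4f, chr2:120314136-120314195, minus strand: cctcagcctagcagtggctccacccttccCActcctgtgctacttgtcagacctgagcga
Ppwd1, chr13:104228815-104228874, minus strand: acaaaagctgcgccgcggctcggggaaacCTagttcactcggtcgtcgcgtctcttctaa
Dnaaf2, chr12:69198400-69198459, minus strand: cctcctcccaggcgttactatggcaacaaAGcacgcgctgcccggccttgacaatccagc
Cpt1c, chr7:44974822-44974881, minus strand: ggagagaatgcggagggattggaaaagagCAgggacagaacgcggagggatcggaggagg
Dkk2, chr3:132085262-132085321, plus strand: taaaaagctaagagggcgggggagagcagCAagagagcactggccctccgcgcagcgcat
Of these 10 transcripts, 6 began with A, each after a C, 2 with G, 1 with C and 1 with T. GGAC stood within the transcript bases shown in 1 of them, Cpt1c, from its base 3.

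Among the 197 peaks with a matching RefSeq start that began within 50 bases of it, 29.9% of transcripts began with A and 52.3% with G. The table as a whole had A at 34.4% and G at 35.6% of starts, and tested genes with at least 2 merged exons had 31.2% and 44.2%. An A after a C stood at 21.3% of the 197 starts, 19.2% of the whole table and 20.6% of the tested multi-exon genes. The 10 sequences above, with 6 such starts, are therefore not typical of the set. The motif GGAC stood on the sense strand of the first 50 bases in 23.4% of the 197, against 18.9% of all promoters in the table, 20.4% of those of the tested multi-exon genes and 15.9% of the 195 peaks that began farther in. On the antisense strand of the 197 it stood in 13.2%, against 17.4% of all promoters, 20.1% of the tested multi-exon genes and 14.9% of the 195. The longer GGACT, each match of which is also a GGAC match, was at 5.58% against 5.76% in the whole table. Median log2 IP over input at the 59 starts with A was 1.01, 1.24 and 1.07 in control samples 1 to 3 and 1.19, 1.18 and 1.12 in UV samples 1 to 3. At the 138 starts with another base it was 0.93, 1.29 and 0.97 in control and 1.00, 1.10 and 1.12 in UV. The starts with A were the higher ones in controls 1 and 3 and in UV 1 and 2, and the lower ones in control 2, while in UV 3 both medians were 1.12. Bases deeper within the peaks were not examined.

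The peaks crowded at the annotated start of the transcript. The distance from the first exon start to the peak start was 0 for 488 peaks (39.5%), and 591 (47.8%) began within 50 bases, called start-proximal here. The other 646 began farther in, 304 of them beyond 500 bases. Apart from the distances of 0, another 246 (19.9%) were whole multiples of 30 bases, and no peak began upstream of its exon. How the peak caller stepped along exons and treated their edges is not stated. Its part in the crowding at the start was not tested. A peak spanned a median of 211 bases in an exon of 746 bases, and 69.6% had their midpoint closer to the start than to the end of the exon. In 32 cases the peak ran past the end of the exon, and 42 peaks lay in exons that overlapped another gene on the same strand.

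**Figure D1:**
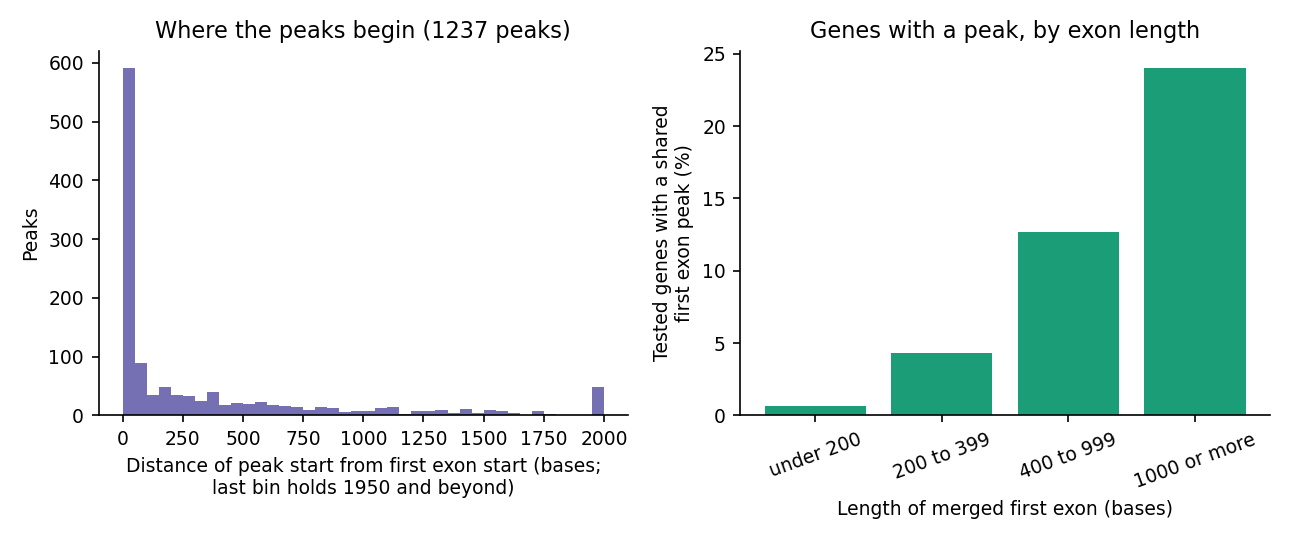
Left, number of first exon peaks by the distance in bases from the first exon start to the peak start, in bins of 50 bases. Right, percentage of tested multi-exon genes with such a peak, by the length of the merged first exon. Start-proximal peaks number 591 of 1237, and the share of genes with a peak goes from 0.68% in first exons under 200 bases to 24.0% in those of at least 1000 bases.

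First exons with a shared peak were long. Among tested genes with at least 2 merged exons the first exon had a median of 630.5 bases with a peak and 216 bases without. A peak was present in 55 of 8093 genes (0.68%) with a first exon under 200 bases, in 244 of 5632 (4.33%) at 200 to 399 bases, in 429 of 3389 (12.7%) at 400 to 999 bases and in 328 of 1366 (24.0%) at 1000 bases or more. The share rose at each step of length, against 5.71% over all 18480 genes. Median input level over these bins was 5.84, 10.04, 9.24 and 8.90 CPM (reads scaled to a sequencing depth of 1000000), and genes with a peak had a median of 24.5 CPM against 7.77 CPM over all. By the rule of the set, a longer exon offers more positions for a midpoint. The parts of that and of expression level in the relation to length were not tested. Protein-coding genes made up 987 of the 1057, and 36 were long noncoding RNAs.

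The longest first exons with a peak were those of Rbm15 (6539 bases), which encodes an RNA-binding subunit of the m6A writer, the bZIP transcription factor gene Maf (6360 bases), the ubiquitin-like protein gene Ubl3 (6204 bases), Wwc2 (5592 bases), a relative of the Hippo pathway scaffold KIBRA, and the protocadherin gene Pcdhgc5 (5567 bases). First exons under 400 bases held 299 of the 1237 peaks, and 267 of those were start-proximal. A single peak was the rule: 940 genes had 1, 84 had 2, 19 had 3 and 14 had at least 4. Overlapping entries were present too: 30 peaks in 8 genes overlapped another peak of the set, so their values are not independent of each other. The most peaks were in Maf (9), in the deubiquitinase gene Usp27x (7, among them near-duplicate entries) and in the protocadherin gene Pcdh7 (6, as in Rnf26 and Mn1).

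IP over input, the ratio of TMM-scaled CPM with 0.5 CPM added to each, describes how strongly a peak was enriched. Since the authors' peak calling selected on that enrichment, its level is given here without a test. The 1237 peaks had median log2 values of 0.93, 1.24 and 1.00 in controls 1 to 3 and 1.04, 1.09 and 1.08 in UV 1 to 3. UV lay inside the control range. Control 2 had the highest ratio of the 3 controls at 67.1% of the peaks, against 51.5% of shared last exon peaks, and its input library was the shallowest, with 24126662 reads in genes and a median of 41 reads per peak. The part of its depth in the higher ratios was not tested. With library size in place of TMM the medians of the sample means were 0.86 in control and 0.94 in UV, and with TMM factors taken over peaks they were 0.16 and 0.20.

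Start-proximal peaks had higher ratios than peaks farther in, in 6 of 6 samples. Their medians were 0.95, 1.31 and 1.04 in control and 1.06, 1.13 and 1.15 in UV. Those of the others were 0.90, 1.18 and 0.96 in control and 1.01, 1.03 and 1.02 in UV. Start-proximal peaks also had higher read levels, with medians of 5.71 CPM in IP and 2.20 CPM in input, against 3.24 and 1.26 CPM. The 0.5 CPM added to each library lowers a ratio more at low levels, and its part in this difference was not tested. Start-proximal peaks in exons of at least 400 bases had 0.97, 1.39 and 1.10 in control and 1.16, 1.23 and 1.21 in UV. In shorter exons they had 0.89, 1.24 and 1.00 in control and 0.93, 1.05 and 1.07 in UV, lower in 6 of 6 samples. Shared last exon peaks had 1.00, 1.16 and 1.05 in control and 1.09, 1.10 and 1.08 in UV, a level that first exon peaks passed in control 2 and were below in the other 5 samples. In 420 genes that held both a first exon and a last exon peak, the median difference of first minus last was −0.07, 0.09 and −0.05 in control and −0.11, 0.02 and −0.05 in UV, so neither end was the higher one in all samples. The peak count was also set against the count of the whole gene. The median percentage was 17.1%, 17.5% and 16.7% in IP of controls 1 to 3 and 8.73%, 7.07% and 8.18% in input. In UV 1 to 3 it was 16.7%, 16.9% and 17.2% in IP and 7.08%, 7.37% and 7.45% in input. Peaks and genes were counted separately, and a peak could exceed its gene, as in Sbsn (4194 against 3711 CPM in control 1 input). These percentages are therefore not shares of a gene's reads.

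**Figure D2:**
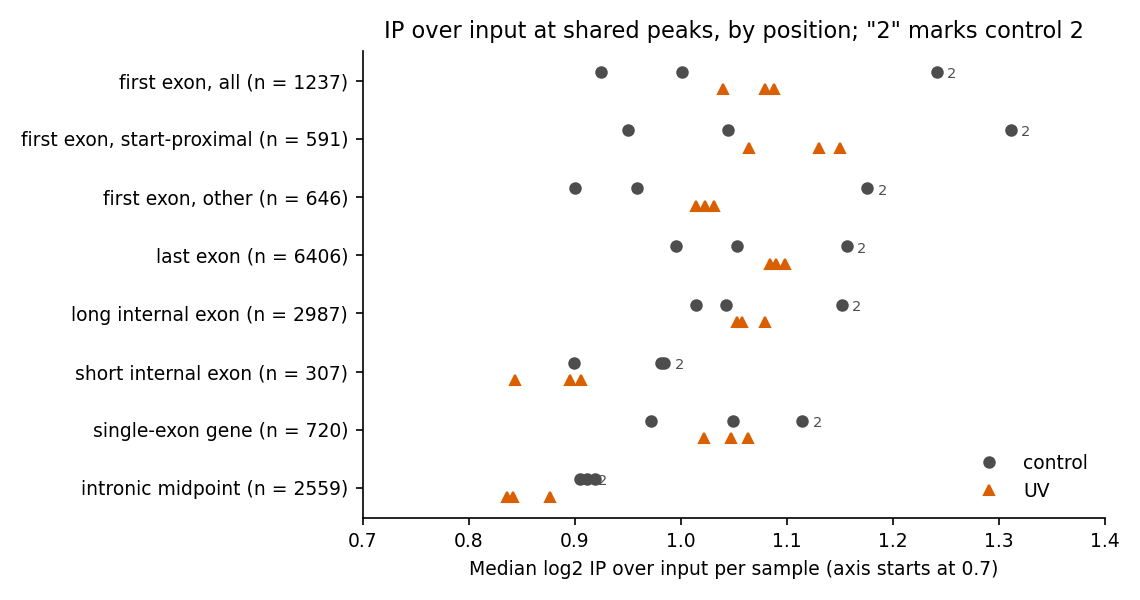
Median log2 IP over input per sample (horizontal axis) for shared peaks by position; circles are the 3 control samples, triangles the 3 UV samples and n is the number of peaks. At first exon peaks the UV medians of 1.04 to 1.09 lie between control 1 (0.93) and control 2 (1.24).

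The most abundant first exon peaks were those of epidermal genes. Sbsn, which encodes the secreted keratinocyte protein suprabasin, had a peak 1098 bases into its exon (chr7:30752569-30753192) with 7446, 4959 and 8839 CPM in control IP and 8454, 6420 and 8520 CPM in UV IP. Dmkn, which encodes the neighbouring secreted protein dermokine, had a peak from its first base (chr7:30763756-30763993) with 3763, 2799 and 5288 CPM in control IP and 4317, 3410 and 4405 CPM in UV IP. The second Sbsn peak (chr7:30751649-30751946) had 1970, 1675 and 2471 CPM in control IP and 2452, 1883 and 2312 CPM in UV IP. Control and UV values overlapped at all 3 peaks. Next by mean IP level were Trim29 (345 CPM), an epithelial tripartite-motif gene, Maf (255 CPM), the melanocyte enzyme gene Dct (210 CPM), Hnrnpu (191 CPM), Bag1 (179 CPM), Hirip3 (138 CPM) and the adherens junction catenin gene Ctnnd1 (137 CPM).

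The highest ratios, among peaks with at least 20 input reads in every library, were at genes of several functions. Abca1, the cholesterol efflux transporter gene, led with 2.23, 3.07 and 2.33 in control and 2.51, 2.62 and 2.63 in UV at chr4:53159745-53159895, a peak that began at the exon start in the sequence above. Lemd3, which encodes an inner nuclear membrane protein, had 2.12, 2.59 and 2.03 in control and 2.68, 2.38 and 2.81 in UV. Ybx1, the cold shock domain RNA-binding protein gene, had 2.00, 3.02 and 2.21 in control and 2.55, 2.29 and 2.35 in UV. Control 2 was the highest control at each of these peaks, and UV and control values overlapped at each. Naa15, Mfhas1, Trim41, Ube2k, Bspry, Wbp1l and Wdr81 followed.

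Within a long exon the peaks differed among themselves. The 9 peaks of Maf ran from a mean log2 IP over input of 1.69 in control and 1.61 in UV at the exon start (1081 bases wide) to 0.60 and 0.64 at the last peak, 6059 bases in. A peak 3629 bases in reached 1.67 in control and 1.34 in UV, and 2 pairs of Maf peaks overlapped. In Pcdh7 the mean ratio was 1.83 in control and 1.62 in UV at the exon start, 0.85 and 0.90 at 2036 bases and 1.68 and 1.59 at 3742 bases. High ratios were found at the start and far inside these exons.

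**Figure D3:**
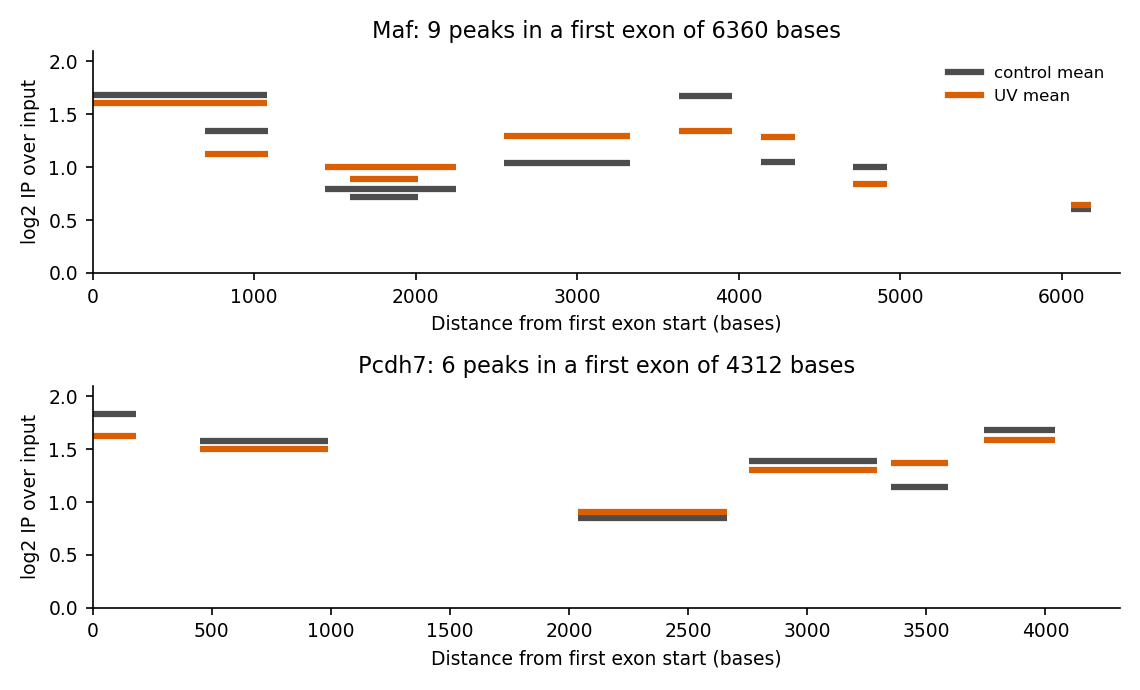
Each bar is a peak in the first exon of Maf (9 peaks) or Pcdh7 (6 peaks), drawn by its distance in bases from the exon start, at the mean log2 IP over input of the 3 control (grey) or 3 UV (orange) samples. The ratio is highest at the start of both exons, and the peaks 3629 bases into Maf and 3742 bases into Pcdh7 are again above 1.

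The main comparison asked whether UV changed IP over input at these peaks, which needs the change in IP reads to differ from the change in input reads. None of the 1230 tested peaks was called by the edgeR quasi-likelihood test (Benjamini-Hochberg adjusted p under 0.05), against 0% of all 41496 peaks tested. At an unadjusted p under 0.05 there were 82 (6.67%) against 8.14% of all peaks tested, and DESeq2 called 0 of them. The authors' deposited table likewise had 0 of the 1237 with an FDR under 0.05, against 45 of all 42989 peaks of the 2 arms. The median log2 change was 0.06, against 0.04 over all peaks tested, and the left-out sample moved it: it was 0.17 against 0.09 without control 2 and turned to −0.02 against −0.002 without control 1. Per-sample ratios of UV and control did not overlap at 164 peaks, 84 higher and 80 lower in UV, which is 13.3% of the 1237, against 19.4% of all 42989 peaks of the table. On data simulated with a fixed spread, not estimated from these samples, the test found 25% of 2-fold and 95% of 4-fold changes. These changes were placed only in features with a mean above 20 reads. The 8 peaks with the smallest p, in Cdc123, March9, Krt5, Jtb, Eif4e2, Kalrn, Gpn2 and Dnaaf2, were not called (adjusted p from 0.521 to 0.541).

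IP and input came from the same sample, and with a block for each sample 12 of the 1230 peaks were called, 4 higher and 8 lower in UV, against 0.974% of all peaks tested (0.381% higher and 0.593% lower). It was 10 with TMM over peaks. Leaving out control 1 gave 10, control 2 gave 107 (88 higher and 19 lower), control 3 gave 1, UV 1 gave 0, UV 2 gave 3 and UV 3 gave 0. Each of the 12 calls ended without at least 1 of the 6 samples.

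Lower in UV with the block were 8 peaks in 7 genes. Exoc6b, which encodes an exocyst subunit, had a log2 IP over input of 1.01, 1.55 and 1.03 in control and 0.54, 0.60 and 0.59 in UV (chr6:85069304-85069513). All 3 UV values lay below the control values, and the change was −0.61 (SE 0.10, edgeR with sample block, adjusted p = 0.00284), or −0.58 (adjusted p = 0.586) without the block. It was called in 6 of 8 fits with the block, the exceptions being those without UV 1 or UV 3 (adjusted p up to 0.0839). Its IP reads were 102, 89.5 and 115 CPM in control and 120, 103 and 122 CPM in UV, and its input reads were 50.5, 30.3 and 56.1 CPM in control and 82.4, 67.6 and 80.3 CPM in UV. The groups were apart in input (log2 change 0.75, SE 0.18, adjusted p = 0.0514, not called) and overlapped in IP. The peak began at the exon start, at a transcript whose first base in the sequence above is A.

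Eif4e2, which encodes a cap-binding homolog of the translation factor eIF4E, had ratios of 1.49, 1.50 and 1.40 in control and 0.91, 1.06 and 1.00 in UV (chr1:87213914-87214154). The groups did not overlap, and the change was −0.48 (SE 0.09, edgeR with sample block, adjusted p = 0.0083; adjusted p = 0.541 without it). Nabp1, which encodes a single-stranded DNA binding protein of the damage response, had 1.39, 1.69 and 1.37 in control and 0.90, 0.87 and 1.09 in UV (chr1:51478246-51478425). Its change was −0.56 (SE 0.12, edgeR with sample block, adjusted p = 0.023). The phospholipase gene Pla2g4f had 1.59, 1.95 and 1.64 in control against 1.10, 1.18 and 1.42 in UV. Its change was −0.49 (edgeR with sample block, adjusted p = 0.0436).

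Both Sbsn peaks fell in ratio in the blocked fit. The peak at 1098 bases had 0.83, 0.79 and 0.84 in control and 0.55, 0.58 and 0.53 in UV, a change of −0.27 (SE 0.05, edgeR with sample block, adjusted p = 0.0114). The peak at 178 bases had 1.04, 1.37 and 1.06 in control and 0.79, 0.85 and 0.81 in UV, a change of −0.34 (SE 0.07, edgeR with sample block, adjusted p = 0.0174). Cdv3 (−0.36) and Ppwd1 (−0.45), a cyclophilin-type isomerase gene, were the others called lower. For Sbsn the input ranges of control, 2873 to 4940 CPM, and UV, 4295 to 5884 CPM, overlapped, and the 2 peaks are in 1 exon of 1 gene. The calls of Nabp1, Pla2g4f, Ppwd1 and the Sbsn peak at 178 bases ended without control 3 or any 1 UV sample, and those of Eif4e2 and the Sbsn peak at 1098 bases without control 3, UV 1 or UV 3. The call of Cdv3 ended without any 1 sample other than control 2. Cdv3 and the Sbsn peak at 1098 bases also lost their calls with TMM over peaks. Of the 8 blocked fits, Cdv3 was called in 2 and that Sbsn peak in 4. The adjusted p in those fits reached 0.147 for Eif4e2, 0.195 for Nabp1, 0.279 for Pla2g4f, 0.193 and 0.157 for the Sbsn peaks at 178 and 1098 bases, 0.223 for Cdv3 and 0.26 for Ppwd1.

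Higher in UV with the block were peaks of 4 genes. Krt5, which encodes the basal keratinocyte keratin, had ratios of 0.98, 1.58 and 1.23 in control and 1.82, 1.69 and 1.77 in UV (chr15:101712771-101712891). The UV values lay above the control values, and the change was 0.51 (SE 0.11, edgeR with sample block, adjusted p = 0.0176; adjusted p = 0.541 without it). Mllt6, a chromatin reader gene known from leukaemia fusions, had 0.66, 2.09 and 1.17 in control and 2.22, 1.92 and 2.23 in UV, so that control 2 lay within the UV range. Its change was 1.03 (SE 0.25, edgeR with sample block, adjusted p = 0.0365). Dnaaf2, a dynein arm assembly factor gene, had −0.43, 0.92 and 0.08 in control and 0.88, 1.38 and 0.98 in UV, with control 2 again inside the UV range. Its change was 1.28 (SE 0.32, edgeR with sample block, adjusted p = 0.0471). Cdc123, a gene of translation initiation factor assembly, had 0.50, 0.77 and 0.72 in control and 1.40, 1.13 and 1.16 in UV, with a change of 0.60 (SE 0.14, edgeR with sample block, adjusted p = 0.0362). Each of the 4 was called in 3 of the 8 blocked fits, and the adjusted p reached 0.195 for Krt5, 0.282 for Mllt6, 0.277 for Dnaaf2 and 0.242 for Cdc123. All 4 lost their call without control 1, control 3, UV 1, UV 2 or UV 3.

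**Figure D4:**
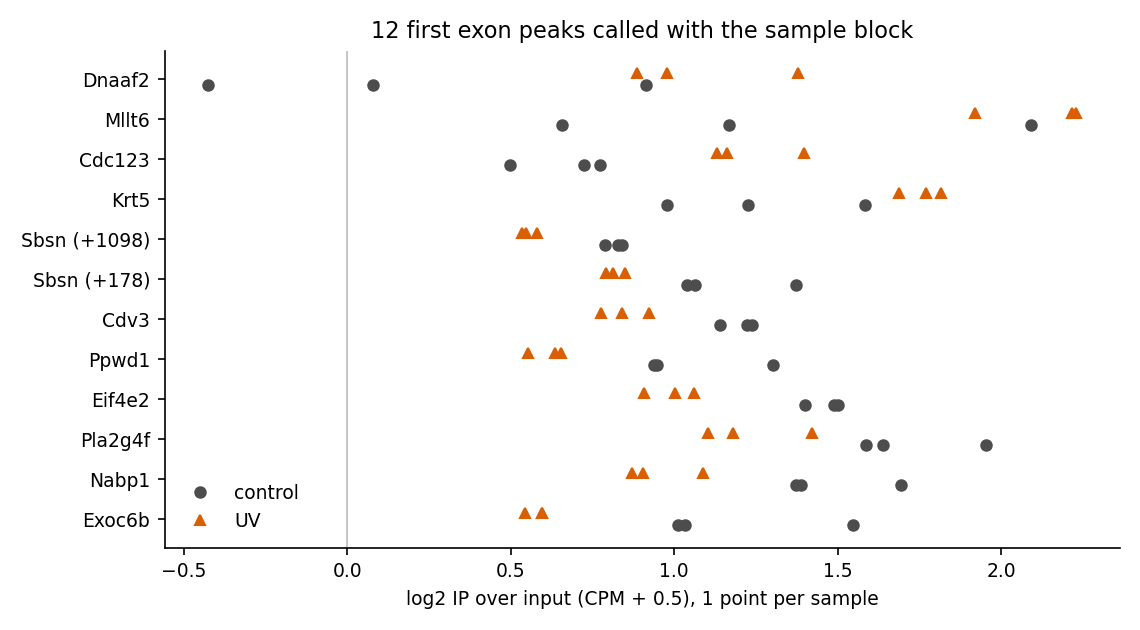
Log2 IP over input of each sample (circles control, triangles UV) at the 12 first exon peaks called in the fit with the sample block. The numbers beside Sbsn are the distance in bases of its 2 peaks from the exon start. At Mllt6 and Dnaaf2 a control sample lies within the UV range, and at the other 10 peaks the groups do not overlap.

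The next comparison asked which first exon peaks differed in IP reads. Of 1223 tested, 14 were higher and 7 lower in UV by edgeR's quasi-likelihood test, 21 in all, against 1.93% of all peaks tested (1.1% higher and 0.826% lower). The median log2 change was −0.07, against −0.01 over all peaks tested. Leaving out control 1 gave 4, control 3 gave 49 (21 higher and 28 lower), UV 1 gave 2, UV 2 gave 6 and UV 3 gave 12. DESeq2 gave 17 higher and 24 lower, so the excess of higher peaks turned in that fit and without control 3. Of the 14 higher peaks, 12 were start-proximal, as were 588 of the 1223 tested. Of the same 14, 11 lay in genes whose transcript level was also called higher, and 4 were called higher in input reads. None of the 21 was called for IP over input without the block, and the Nabp1 peak was called lower with it.

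Cpt1c, which encodes a brain-type carnitine palmitoyltransferase, had 1.08, 1.17 and 1.04 CPM in control IP and 3.21, 2.90 and 2.65 CPM in UV IP (chr7:44974643-44974821). All UV values were above all control values, with a log2 change of 1.40 (SE 0.18, edgeR, adjusted p = 0.00323). Its input reads moved likewise, from 0.42, 0.43 and 0.51 CPM to 1.52, 1.15 and 1.29 CPM (1.51, SE 0.26, edgeR, adjusted p = 0.0138), though leaving out control 1, UV 1 or UV 3 ended that call (0.0823 at most). Ephx3, which encodes an epoxide hydrolase of epidermal lipid metabolism, had 3.15, 2.82 and 4.35 CPM in control and 6.65, 6.81 and 5.91 CPM in UV IP (0.94, SE 0.17, edgeR, adjusted p = 0.02). Its input values overlapped between the groups, at 1.39, 1.64 and 2.35 CPM in control and 2.21, 2.49 and 2.79 CPM in UV, and the change of 0.48 was not called (edgeR, adjusted p = 0.233). The fatty acid elongase gene Elovl6 rose by 0.59 in IP reads and the retinol dehydrogenase gene Rdh1 by 0.61. Ephx3 was no longer called when control 1, UV 1 or UV 2 was omitted (largest adjusted p 0.112). Omitting control 1 or any 1 UV sample likewise removed Elovl6 (0.204) and Rdh1 (0.113), and library size only removed Elovl6.

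Fam213a, which encodes a thioredoxin-like redox protein, rose by 0.87, from 3.38, 3.04 and 3.63 CPM to 6.15, 5.82 and 6.28 CPM. The Wnt inhibitor gene Dkk2 rose by 0.74, from 9.27, 8.16 and 7.14 CPM to 14.3, 14.1 and 12.8 CPM. In both genes every UV value exceeded every control value. Nabp1 rose by 0.60 in IP reads and by 1.14 in input reads (edgeR, adjusted p = 0.00292), so the rise was larger in input than in IP. Psrc1, a spindle protein gene, rose by 0.61, Ei24 by 0.68 and Bax by 0.56. The IP call ended for Fam213a without control 1 or UV 1 (adjusted p up to 0.0625), for Dkk2 without UV 1 or UV 2 (up to 0.0815), for Nabp1 without control 1, UV 1 or UV 3 (up to 0.105), and for Psrc1 without control 1, control 3 or any 1 UV sample and also with library size only (up to 0.188).

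Lower in IP reads were 7 peaks. Slc24a3, which encodes a sodium, potassium and calcium exchanger, had 3.45, 3.04 and 2.39 CPM in control and 0.31, 0.65 and 1.28 CPM in UV (chr2:145167754-145168024; −2.00, SE 0.34, edgeR, adjusted p = 0.0149). Input reads at that peak numbered 37, 10 and 33 in control and 0, 2 and 3 in UV. Plcxd2, a phospholipase-like gene, had 7.95, 7.10 and 8.02 CPM in control and 3.62, 3.70 and 4.03 CPM in UV (−1.02, SE 0.13, edgeR, adjusted p = 0.00296), a gap wider than the spread in either group. The activin subunit gene Inhbb (−0.94), Lysmd1 (−0.64) and a Pcdh7 peak (−0.58) were also lower. In control input the Lysmd1 peak had 9.75, 9.93 and 11.4 CPM, above the 2.43, 3.03 and 3.39 CPM of its gene. Its fall therefore cannot be assigned to that gene. Slc24a3 was not called when control 1, UV 1 or UV 2 was omitted (largest adjusted p 0.0934). The call of Inhbb without control 1, control 2 or any 1 UV sample (up to 0.157), of Lysmd1 without UV 1 (0.0717), and that of the Pcdh7 peak without control 1, control 2 or any 1 UV sample, with TMM over peaks and with library size only (up to 0.147). The calls of Cpt1c and Plcxd2 held in all alternatives run, with adjusted p up to 0.031 and 0.0275.

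Input reads within the peaks gave the level of unselected RNA in the same windows, which is not the level of the whole transcript. Of 1127 tested, 9 were higher and 18 lower in UV by edgeR's quasi-likelihood test, against 3.33% of all peaks tested (2.01% higher and 1.32% lower). With library size only the split was 5 higher and 40 lower, and with TMM over peaks it was 14 and 17. Leaving out control 1 gave 1, control 2 gave 88, UV 1 gave 2, UV 2 gave 5 and UV 3 gave 4. The median change was −0.14, against −0.07 over all peaks tested. For the whole transcripts of the genes with a peak it was 0.01, against −0.01 over all genes tested. Of the 18 lower peaks 12 were start-proximal, as were 560 of the 1127 tested. Of the same 18, 5 lay in genes with a lower transcript level, and 1, in Slc24a3, was also lower in IP reads.

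Irx3, a homeobox gene, had 24.3, 22.5 and 34.1 CPM in control input and 45.9, 52.6 and 45.3 CPM in UV input within its peak (chr8:91801384-91802037). The groups did not overlap, with a log2 change of 0.83 (SE 0.15, edgeR, adjusted p = 0.0161, up to 0.0971 when control 1, UV 1 or UV 2 was omitted, where the call ended). The Wnt effector gene Lef1 had 1.80, 1.92 and 0.82 CPM in control and 0.27, 0.51 and 0.67 CPM in UV (−1.55, SE 0.38, edgeR, adjusted p = 0.0498). Its call ended when any 1 of control 1, control 2 and the UV samples was left out (up to 0.199). Mllt6 had 5.01, 3.20 and 3.81 CPM in control and 1.47, 2.38 and 1.78 CPM in UV (−1.10, SE 0.22, edgeR, adjusted p = 0.0249), while its IP reads overlapped at 8.18 to 15.3 CPM in control and 8.64 to 10.4 CPM in UV. That call ended without control 1, UV 1 or UV 3 (up to 0.126). Also lower were the fatty acid transporter gene Slc27a6 (−1.19), the cytokine feedback gene Socs7 (−1.03), the transcription kinase gene Cdk13 (−0.99), Msl2 (−0.99), a histone acetylation complex gene, the lipid phosphatase gene Plpp3 (−0.93), the kinase gene Wnk2 (−0.92) and Ybx3 (−0.86), a relative of Ybx1. Also higher were the microtubule protein gene Map6 (0.67), Lage3 (0.48), Hypk (0.46) and Ccdc86 (0.42). Each of these calls ended without control 1 and without any 1 UV sample (up to 0.2, for Hypk), and those of Lage3, Hypk and Ccdc86 also with library size only. Lower input in a peak did not always go with a lower transcript. Whole-transcript changes were −0.11 for Mllt6, 0.09 for Cdk13 and −0.17 for Ybx3, not called, and −0.98 for Wnk2, called.

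**Figure D5:**
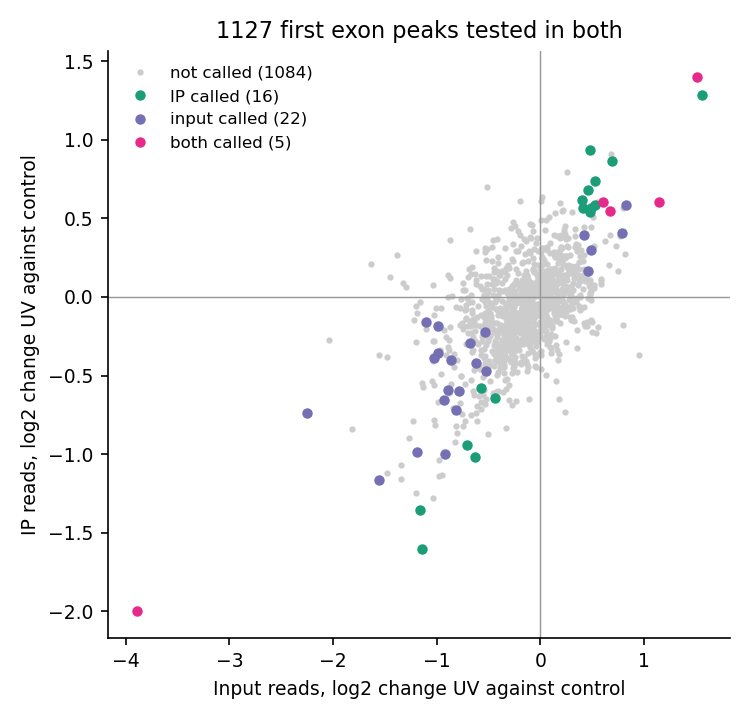
Log2 change from control to UV in input reads (horizontal) and in IP reads (vertical) for the 1127 first exon peaks tested in both; coloured points were called in IP, in input or in both. Of the peaks called in IP, 4 higher and 1 lower were called the same way in input.

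The level of the whole transcript was compared in the input libraries. Of 1056 genes with a first exon peak, 44 were higher and 21 lower in UV by edgeR's quasi-likelihood test, against 6.01% of all 24192 genes tested (3.25% higher and 2.76% lower). With library size only the split was 17 higher and 40 lower. Leaving out control 1 gave 10, control 3 gave 106, UV 1 gave 6, UV 2 gave 8 and UV 3 gave 11. Slc24a3 had 14.8, 17.6 and 16.2 CPM in control and 4.02, 3.66 and 4.77 CPM in UV (−1.96, SE 0.13, edgeR, adjusted p = 0.00133). Cpt1c had 3.64, 3.10 and 2.83 CPM in control and 8.42, 7.23 and 7.16 CPM in UV (1.25, SE 0.14, edgeR, adjusted p = 0.00489). Both genes were apart between the groups by more than the spread within either. Wnk2 (−0.98), Hunk (−0.87), Cttnbp2 (−0.59), Apcdd1 (−0.56), Kif3c (−0.55), Arhgef26 (−0.53), Dip2c (−0.52), Pcdh7 (−0.50) and Slc46a2 (−0.49) were also lower. Fam213a (0.96), Map6 (0.84), Pank1 (0.78), Ei24 (0.73), Irx3 (0.69), Dkk2 (0.69), Elovl6 (0.69), Nabp1 (0.64) and Ell2 (0.61) were also higher. The calls of Slc24a3, Cpt1c, Wnk2, Map6, Pank1 and Ei24 held in the 10 alternatives run, and those of the other 14 genes ended without control 1 and without at least 1 UV sample (adjusted p up to 0.158, for Hunk).

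Summed input levels of marker genes lay apart between the groups for T cell, skeletal muscle, macrophage and fat markers. They overlapped for hair, skin, neutrophil, blood and melanocyte markers. T cell markers (3 genes) summed to 7.14 to 9.32 CPM in control and 0.99 to 1.36 CPM in UV. Skeletal muscle markers (4 genes) summed to 3321 to 7904 CPM and 1022 to 2856 CPM, and hair markers (4 genes) to 3178 to 5740 CPM and 1763 to 3986 CPM. Skin markers (8 genes, epidermal genes and dermal collagen genes together) summed to 19832 to 50778 CPM and 44990 to 66837 CPM. Macrophage markers (3 genes) summed to 31.5 to 41.2 CPM in control and 24.1 to 26.5 CPM in UV, and fat markers (3 genes) to 167 to 188 CPM and 205 to 257 CPM. No marker was at 0, so the labelled tissue showed its defining genes. In bulk skin fewer cells of a type and less RNA per cell cannot be told apart, and the part of cell composition in the read changes above was not tested.

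Grouped by function, gene lists differed in how many genes had a first exon peak, beside 5.71% of all 18480 tested multi-exon genes. No list was tested for its share, and none held a peak called for IP over input without the block. Of 25 genes of the m6A and m6Am machinery, Rbm15 (3 peaks) and the reader gene Ythdc2 (1 peak) had one, and Virma had none. The widest Rbm15 peak (chr3:107330798-107332535) had a mean ratio of 1.68 in control and 1.77 in UV, and its IP reads were 49.8, 56.0 and 51.8 CPM in control and 52.1, 49.3 and 43.9 CPM in UV, which overlapped. None of the 4 peaks was called in any comparison. Of 26 AP-1, immediate early and Krüppel-like genes 5 had peaks, 14 in all (Maf, Junb, Fosl2, Klf4 and Klf9), with a median log2 change of IP over input of 0.04 and of IP reads of −0.22, and none was called. Of 17 insulin and FOXO genes 6 had peaks, 11 in all, among them the receptor substrate genes Irs1 and Irs2, the kinase gene Gsk3b and Foxo4, and none was called. The Foxo4 ratios of 1.72, 1.69 and 1.82 in control and 1.33, 1.34 and 1.41 in UV did not overlap (change −0.39, edgeR with sample block, adjusted p = 0.0639).

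Of 21 p53 and damage response genes, 5 had a first exon peak (Bax, Ei24, Perp, Phlda3 and Sesn1), and 3 of their 7 peaks were higher in IP reads, against 1.1% of all peaks tested. The 2 peaks of Bax, the apoptosis effector gene, had 14.2, 12.6 and 13.6 CPM (505 bases in) and 15.8, 14.2 and 14.6 CPM (at the start) in control IP and 20.7, 20.02 and 18.9 CPM and 21.5, 22.2 and 21.2 CPM in UV IP. Both were apart between the groups (log2 change 0.56, SE 0.10, edgeR, adjusted p = 0.0189, and 0.54, SE 0.10, edgeR, adjusted p = 0.0201). Ei24, a p53-induced membrane protein gene, had 3.11, 3.15 and 3.87 CPM in control and 5.96, 5.26 and 4.91 CPM in UV IP (0.68, SE 0.15, edgeR, adjusted p = 0.0469). The Bax call at 505 bases ended without control 1, UV 1 or UV 2 (up to 0.116), and that of Ei24 without any 1 sample other than control 3 and with library size only (up to 0.207). Ratios of IP over input at these peaks had changes of 0.16, 0.06 and 0.23 and were not called (edgeR, adjusted p from 0.811 to 0.962). Transcript levels of Bax (0.43) and Ei24 (0.73) were higher, so 2 of the 5 genes were called. Perp, a desmosomal p53 target, had ratios of 0.50, 2.01 and 1.02 in control and 1.74, 1.69 and 2.15 in UV, with overlapping groups (0.96, edgeR with sample block, adjusted p = 0.072).

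Of 45 homeobox genes 12 had peaks, 14 in all, and Irx3 was the 1 of 8 tested called higher in input reads. Irx3 and Hoxc8 (0.41) were called higher in transcript level. Of 27 TGF-beta and BMP genes 9 had peaks, among them the ligand genes Tgfb1, Tgfb2, Tgfb3, Bmp2 and Bmp4, the mediator gene Smad5, the inhibitory Smad6 and Smad7, and the ubiquitin ligase gene Smurf2. None of their 13 peaks was called, and the transcript level of Tgfb2 was lower (−0.58, edgeR, adjusted p = 0.0386). Of 38 Notch and Wnt genes 8 had 1 peak each: Jag1, Notch2, Maml1, Maml2, Maml3, Lef1, Tcf7l2 and Rnf43. The Jag1 ligand gene had ratios of 1.37, 1.47 and 1.38 in control and 1.72, 1.60 and 1.68 in UV, which did not overlap (0.27, edgeR with sample block, adjusted p = 0.236, not called).

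Protocadherin genes, whose variable ectodomain is held in 1 large first exon, had 31 peaks in 19 of 69 genes, in first exons of a median of 3648 bases. Their median log2 IP over input was 0.80 in control and 0.90 in UV, and none of the 30 tested was called for it. In IP reads 2 of 29 were lower, in Pcdh10 and Pcdh7, against 0.826% of all peaks tested. Pcdh7 was lower in transcript level (−0.50, SE 0.09, edgeR, adjusted p = 0.0199), and the log2 changes in IP reads at its 6 peaks ran from −0.58 to −0.47. Reads of the clustered protocadherins, whose exons resemble each other, can be shared between genes and are uncertain. Of 444 zinc finger genes 15 had peaks, and their expressed members had short first exons with a median of 172 bases. Of 68 ubiquitin ligase adaptor genes 6 had peaks, and of 24 feedback regulator genes 3, of which the Socs7 peak was lower in input reads. Of 33 SOX, forkhead, GATA and TFAP2 genes 1 had a peak, Tfap2c. Among 14 epidermal keratin genes Krt5 was the 1 with a peak. No first exon peak was in any of 18 collagen genes, 76 ribosomal protein genes or 19 clock genes. Their expressed members had first exons with medians of 263, 265.5 and 317 bases. Beside 5.71% over all tested multi-exon genes, 0 or 1 gene with a peak in lists of 14 to 33 genes is near that share.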

How the data were processed

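MeRIP-seq libraries of mouse skin were used as read counts per peak and per gene that the authors deposited. Per the submitters' processing notes, reads were processed with STAR 2.5.3a and the build GRCm38. No source used here names the peak caller, read counter or annotation. The deposited peak table also held the authors' own log2 fold changes and p-values, of which only their FDR was counted. Peak starts in the files count from 0 and are printed 1-based. Of gene counts between 1 and 20, 79.5% to 83.6% per library were even numbers, and how read pairs were counted is not stated, so reads may not be independent fragments. Nothing says that samples were separate animals. The peaks and gene lists were chosen with earlier results of these data known.

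First exons were taken from the deposited exon starts and ends of each gene, with overlapping exons merged. Library sizes were reads in genes times TMM factors over genes, from 24126662 to 92163619 reads in genes per library. Chi-square per degree of freedom between replicates was 48.0 to 167, so samples differed by more than counting error. Peak counts and gene counts were tested with edgeR 4.0.16 (quasi-likelihood F test, R 4.3.3, limma 3.58.1) over all peaks or all genes that passed filterByExpr, with Benjamini-Hochberg adjusted p under 0.05 as a call. IP over input was the interaction of library type and UV, fitted without and with a block for the sample. Log2 IP over input per sample added 0.5 CPM to each library. DESeq2 1.42.0, other scalings, no filter and leaving out each sample were alternatives. A block by sample number, which pairs control and UV, was another for IP reads, input reads and transcript levels. The blocked fits with TMM over peaks or without a sample were added after the data were seen. Tables were made with Python 3.11.15, pandas 2.3.3 and numpy 2.4.6.

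IP and input libraries of the same number deviated together (r from 0.555 to 0.801 over 15183 genes), so the number marks the sample. Control and UV samples of the same number did not (r from −0.221 to 0.104), so they were not paired in the main fits. On simulated data 25% of 2-fold and 95% of 4-fold changes of IP over input were recovered. It was 79% and 99% for IP reads, 62% and 99% for input reads and 78% and 100% for transcript levels. Each value rests on 100 changed features, among 40762, 40892, 36958 and 24172 fitted. The simulation used 1 fixed spread for all features, not estimated from these data. It changed only features with a mean above 20 reads per library, and gave IP and input the same starting level. Of the 1237 peaks, 811 had at least 20 input reads in every library. The simulation held no deviation shared by the IP and input of a sample.

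Named were up to 10 called peaks or genes per direction and comparison with the largest change and a mean IP level of at least 1 CPM, the 8 smallest p where fewer than 5 were called, the 10 highest by IP level and by ratio, the longest exons, the genes with the most peaks and up to 4 genes per list. Gene names of the Gm and Rik kind were counted but not named. Pcdh10, Hoxc8, Tgfb2 and Perp were named through their lists.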

Additional observations from a re-analysis of the deposited data

How the results depend on the processing

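The number of peaks called for IP over input was 0 under each scaling, filter and left-out sample without a block and 12 with the sample as replicate block, where leaving out 1 sample gave 0, 0, 1, 3, 10 and 107. For IP reads (21 called) DESeq2 gave 41 and leaving out 1 sample gave 2 to 49. For input reads (27 called) library size only gave 45, DESeq2 gave 50 and leaving out 1 sample gave 1 to 88. For transcript levels (65 called) DESeq2 gave 131, no low-count filter gave 99 and leaving out 1 sample gave 6 to 106. A block by sample number treated control and UV samples of the same number as pairs, which they were not shown to be. It gave 22 for transcript levels, 25 for IP reads and 27 for input reads. The cause of these differences was not tested.

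Median log2 IP over input was 1.05 in control and 1.06 in UV. It was 0.86 and 0.94 with library size only, 0.16 and 0.20 with TMM over peaks, 1.30 and 1.36 with a pseudocount of 0.1 CPM, and 1.16 in UV over peaks with at least 20 input reads in every library. The set held 948 to 1328 peaks under the other overlap, width and exon rules. Alternatives per item were run for 16 peaks in IP over input, 15 in IP reads, 18 in input reads and 20 genes in transcript level, and none of these reversed. Items named only through a gene list were not included. The block by sample number also ended the IP read calls of Ei24, Inhbb and a Pcdh7 peak. In a simulation with a fixed spread not estimated from these data, the test of IP over input recovered 25% of 2-fold changes. Changes of that size could be missed, and their recovery in these samples is not known. Input libraries held as few as 24126662 reads in genes, and the part of depth in that recovery was not tested.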

Other observations

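Start-proximal peaks and peaks farther into the exon were tested in the same comparisons. With the sample block, 8 of 590 start-proximal peaks and 4 of 640 others were called for IP over input, against 0.974% of all peaks tested. In IP reads 12 start-proximal peaks were higher and 3 lower of 588, and 2 were higher and 4 lower of 635 others. Over all peaks tested 1.1% were higher and 0.826% lower in IP reads. The difference between these counts was not tested.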
